A study of Mus musculus with 6 samples.

Results

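The genes described here encode classical and related cadherins (Cdh1, Cdh2, Cdh3, Cdh11 and Cdh13), the epithelial cell adhesion molecule EpCAM (Epcam) and the catenins that bind cadherin tails inside the cell (Ctnnb1, Ctnna1 and Ctnnd1). They were chosen by name, and all 9 were found on the array, among 20660 genes with a matched probe, through the RefSeq accession of their probes. In the sorted mammary cells compared here, the mean signals of T-cadherin (Cdh13), P-cadherin (Cdh3), N-cadherin (Cdh2) and OB-cadherin (Cdh11) were lower in fetal than in adult basal cells, whereas those of E-cadherin (Cdh1), β-catenin (Ctnnb1) and Epcam were higher. Only the differences of Cdh13 and Epcam passed the threshold used for calls. Those of Cdh1, Cdh11 and, by its brighter probe, Cdh2 were under 2-fold, and the populations overlapped for Cdh11. The mean signals of Ctnna1 and Ctnnd1 were lower in fetal cells by under 2-fold, with overlap for Ctnnd1.

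The fetal cells came from the mammary rudiments of female C57Bl6J embryos at embryonic day 18.5 (E18.5) and were sorted as CD31-CD45-Ter119- cells with high surface EpCAM (EpCAM++) and CD49f. The adult basal cells came from glands of C57Bl6J females aged 8 to 12 weeks and were sorted as CD31-CD45-Ter119- cells that also lacked BP-1 and had lower EpCAM (EpCAM+) with CD49f. There were 3 biological replicates of each population, with no genetic change or treatment in either, and each was hybridized to a single-color Agilent SurePrint G3 Mouse GE 8x60K array. CD31, CD45 and Ter119 mark endothelial, leukocytic and erythroid cells, which the sort removed, BP-1 was used against stromal cells in the adult preparation alone, and CD49f is the integrin α6 chain. The methods give a short dissociation for fetal tissue and a longer one for adult tissue, so age, gate and dissociation cannot be told apart in this comparison. Each array carried 55681 probes other than controls, of which between 76.4% and 83.3% were well above background on an array, and no spot was saturated. Each population lay on both of 2 slides, with fetal replicate 1 and adult basal replicates 1 and 3 on slide 1, and the other arrays on slide 2.

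Classical cadherins are calcium-dependent receptors that bind the same cadherin on the neighbouring cell. Their cytoplasmic tail holds p120-catenin near the membrane and β-catenin further along, and β-catenin in turn binds α-catenin, which connects the junction to actin. In the mammary gland E-cadherin is typical of luminal cells and P-cadherin of basal, myoepithelial cells. EpCAM is an unrelated transmembrane glycoprotein of epithelial cells that associates with claudin-7 and can be cleaved at the membrane. In a bulk sample, fewer cells of a type and less RNA per cell cannot be told apart.

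Matched by RefSeq accession, the 9 genes had 11 probes, and probes with other accessions were not used here. Each of the 11 was well above background on all 6 arrays by the scanner's own measure, although both Cdh11 probes were dim. All values below are log2 signals after quantile normalization of the 6 arrays, and a log2 fold change is fetal minus adult basal, so that 1 unit is a 2-fold difference. Where a gene had 2 probes (Cdh2 and Cdh11), the brighter was used as its main probe. Levels of different members are not compared with each other, because probes differ in how strongly they bind. For the same reason the summed signals of marker lists given below weight each gene by the brightness of its probe, and the brightest gene of a list is the one with the most weight, not the most RNA. A probe was called when the populations differed by at least 2-fold and limma's p, Holm-adjusted over the 20448 tested probes, did not exceed 0.05. Taken alone, a gene measured on 3 arrays a population cannot reach a two-sided exact permutation p under 0.1, and the calls therefore draw on the variance that limma estimates over all probes.

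Of the 9 members, 1 was called higher in fetal cells (Epcam) and 1 higher in adult basal cells (Cdh13). Over all tested probes 11.1% were called in either direction. Counted over 15725 genes by their main probe, the share called was 6.02% for higher fetal signal and 5.2% for higher adult basal signal. With Benjamini-Hochberg in place of Holm adjustment and the same 2-fold limit, 2 members were called in each direction: Epcam and Ctnnb1 were higher in fetal cells, and Cdh13 and Cdh3 were higher in adult basal cells. The background of that rule was 15.8% of genes for fetal and 13.9% for adult basal cells. The 2 populations did not overlap for 7 of the 9 members, a share near that over all tested genes, 68.4%. The median log2 fold change of the members was -0.40, beside -0.04 over all tested genes, and their median absolute log2 fold change was 0.86, beside 0.53.

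**Figure D1:**
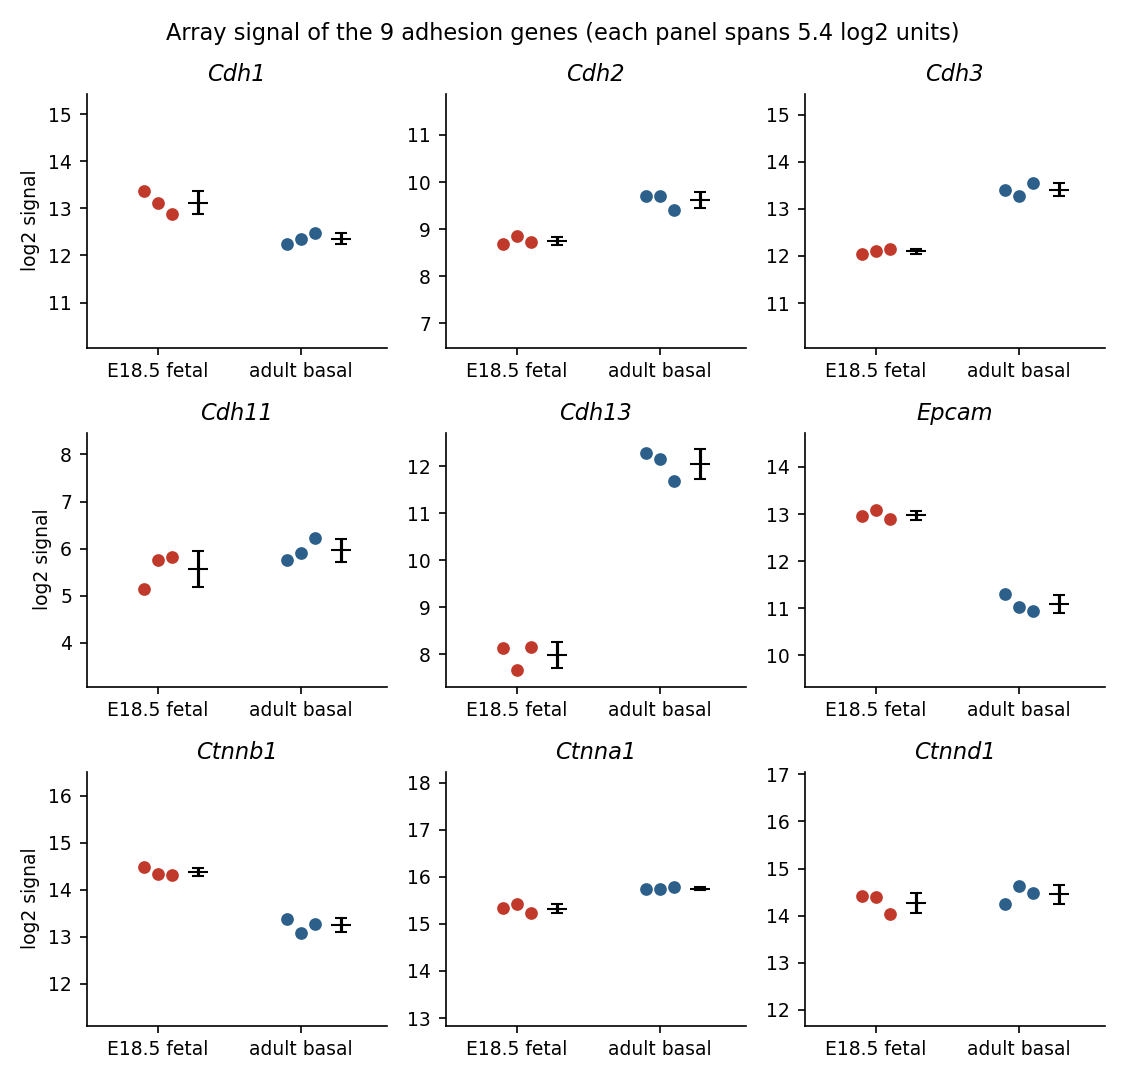
Log2 signal (vertical axis) of the main probe of each of the 9 genes on the 3 E18.5 fetal arrays (red points) and the 3 adult basal arrays (blue points), with the mean and SD of each population in black. The populations are separate for 7 genes, by over 3 log2 units for Cdh13, and overlap for Cdh11 and Ctnnd1.

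Cdh13 encodes T-cadherin, an atypical cadherin that lacks the cytoplasmic tail, is held in the membrane by a lipid anchor and binds adiponectin. Its log2 signal was 8.13, 7.67 and 8.16 in fetal replicates 1 to 3 and 12.29, 12.16 and 11.69 in adult basal replicates 1 to 3. All fetal arrays were far below all adult basal arrays. The log2 fold change was -4.06 (SE 0.20, 95% CI -4.53 to -3.59, n = 3 and 3), a 16.7-fold lower signal in fetal cells (limma, Holm-adjusted p = 0.00266). This absolute fold change was above that of 96.7% of tested genes. The difference was -3.85 within slide 1 and -4.25 within slide 2, and the call held under each of the 19 alternatives tried, with an adjusted p of 0.0193 when slide was a block in limma's fit. The 3 genes whose profile over the 6 arrays, each centred on its own mean, lay nearest to that of Cdh13 were Krt5, Avil and Arhgef4, at root mean square distances of 0.155, 0.205 and 0.219 log2 units. Krt5 encodes a keratin of basal epithelial cells and Avil the actin-binding protein advillin. Because the profiles span only 6 arrays, this likeness mostly describes the size of the difference between the populations.

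Markers of basal cells (keratins, contractile genes and Trp63 among them) were read from a list of 12. All were tested, 8 were called higher in adult basal cells and none higher in fetal cells with Holm adjustment in limma's test, and their median log2 fold change was -3.93. Myh11, 1 of the 8, had a fetal mean below the low-signal limit and was tested only through its adult basal signal. Itgb4 passed only with Benjamini-Hochberg adjustment, and Krt14, Lgals7 and Trp63, whose populations overlapped, did not pass, at log2 fold changes of -1.20, -0.27 and -0.08. The 2 probes of Trp63, a transcription factor of basal epithelia, differed, as the dimmer one gave -3.07 and was called (limma, Holm-adjusted p = 0.00019). These 5 genes were named after their values were seen. The summed linear signal of the list was 106757, 97482 and 87768 on fetal arrays and 1250692, 1218188 and 1213355 on adult basal arrays, and its brightest gene was Acta2, smooth muscle actin. Endothelial cells are another known source of T-cadherin. Of 8 endothelial markers tested, out of 10, none was called with Holm adjustment and 5 were called higher in adult basal cells with Benjamini-Hochberg adjustment in limma's test, 3 of them tested only through their adult basal signal (Cdh5, Emcn and Esam), and their median log2 fold change was -1.48. The summed signal of the endothelial list was 12582, 11121 and 13035 on fetal arrays and 13663, 14500 and 12286 on adult basal arrays, and most of it came from Kdr, the brightest gene. Without Kdr it was 960, 962 and 1205 on fetal arrays and 1809, 1783 and 2157 on adult basal arrays, which did not overlap. No fetal array had Tek or Tie1 well above background. The part of either cell type in the difference of Cdh13 was not tested.

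Cdh3 encodes P-cadherin, a classical cadherin. Its log2 signal was 12.03, 12.10 and 12.15 in fetal cells and 13.39, 13.28 and 13.55 in adult basal cells. Each fetal array was below each adult basal array. Its log2 fold change was -1.31 (SE 0.11, 95% CI -1.57 to -1.05, n = 3 and 3), which passed in limma's test with Benjamini-Hochberg adjustment (adjusted p = 4.09e-05) and not with Holm adjustment (adjusted p = 0.0967). The differences within the slides were -1.44 and -1.15. With Holm adjustment it also passed when eBayes used a trend and robust estimation, and when 16 was added to the signal before log2.

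Cdh1 encodes E-cadherin, the classical cadherin of epithelial adherens junctions. Its log2 signal was 13.37, 13.11 and 12.88 in fetal cells and 12.25, 12.35 and 12.48 in adult basal cells. The populations did not overlap, and fetal replicate 3 lay nearest to the adult arrays. The log2 fold change was 0.76 (SE 0.15, 95% CI 0.42 to 1.11, n = 3 and 3), or 1.70-fold, which was under the 2-fold limit. Its p in limma's test was 0.00118 before adjustment, 0.00293 with Benjamini-Hochberg and 1 with Holm adjustment. Within the slides the differences were 1.01 and 0.65.

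Cdh1 and Cdh3 are neighbours on mouse chromosome 8 in the GRCm38.p6 RefSeq annotation, with 0 protein-coding genes between them, and their signals differed in opposite directions. Subtracting the log2 signal of Cdh3 from that of Cdh1 on the same array gave 1.34, 1.01 and 0.73 on fetal arrays and -1.14, -0.93 and -1.07 on adult basal arrays. The change between the populations was 2.07 log2 units, larger than the SD of either (0.31 and 0.11, n = 3 each), with a two-sided exact permutation p of 0.1, the smallest that 3 arrays against 3 allow. The same subtraction for Cdh1 and Cdh2 gave 4.69, 4.26 and 4.16 on fetal arrays and 2.54, 2.64 and 3.07 on adult basal arrays, a change of 1.62 with an exact permutation p of 0.1. Both pairs were chosen after their values were seen, and a difference of this kind shows unequal change only.

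Cdh2 encodes N-cadherin, the classical cadherin of neural and many mesenchymal cells. Its brighter probe gave a log2 signal of 8.68, 8.85 and 8.73 in fetal cells and 9.71, 9.71 and 9.41 in adult basal cells. The populations did not overlap on this probe. The log2 fold change was -0.86 (SE 0.12, 95% CI -1.15 to -0.57, n = 3 and 3), under the 2-fold limit, with a p of 0.00059 in limma's test after Benjamini-Hochberg adjustment and of 1 after Holm adjustment. The dimmer probe gave 7.83, 7.85 and 7.68 in fetal cells and 9.11, 9.40 and 8.90 in adult basal cells, which also did not overlap, and its log2 fold change was -1.35 (SE 0.15). That probe passed in limma's test with Benjamini-Hochberg adjustment (adjusted p = 0.000151) but not with Holm adjustment (adjusted p = 0.505). Thus the call of Cdh2 with Benjamini-Hochberg adjustment depended on the probe, and the mean of both probes gave a log2 fold change of -1.11.

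Cdh11 encodes OB-cadherin, a classical cadherin of mesenchymal cells. Its brighter probe was dim, with a log2 signal of 5.13, 5.75 and 5.82 in fetal cells and 5.75, 5.91 and 6.23 in adult basal cells. The populations overlapped. Fetal over adult basal, the log2 fold change was -0.40 (SE 0.21, 95% CI -0.90 to 0.10, n = 3 and 3), so that a difference of either sign was within the interval. Its fetal mean was below the low-signal limit of 5.95, so this probe was tested only through its adult basal signal. The other Cdh11 probe, with 4.86, 4.69 and 5.42 in fetal cells and 5.55, 5.20 and 6.13 in adult basal cells, lay below that limit in both population means and was not tested, and its populations overlapped too. For the brighter probe the difference was -0.86 within slide 1 and -0.13 within slide 2.

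Fibroblasts, which express Cdh11 and Cdh2, were followed through 13 marker genes. Of 12 tested, 2 were called higher in adult basal cells with Holm adjustment in limma's test (the receptor gene Pdgfrb and the proteoglycan gene Dcn) and none in fetal cells, and their median log2 fold change was -0.93. With Benjamini-Hochberg adjustment 5 had higher adult basal and 2 higher fetal signal, the latter being Vim, at a log2 fold change of 1.15, and Fbln1, at 1.03 (0.84 by its other probe, under the 2-fold limit), both named after their values were seen. Fap, Pdgfrb and Twist2 had a fetal mean below the low-signal limit and were tested only through their adult basal signal. The summed signal of the list was 40393, 39822 and 41684 on fetal arrays and 33930, 37603 and 43955 on adult basal arrays, which overlapped. The brightest gene of the list was Vim. Without Vim the sum was 9109, 9165 and 11198 on fetal arrays and 19887, 23741 and 30076 on adult basal arrays, which did not overlap. No fetal array had Dpt well above background. Without fetal replicate 1, 1 gene of this list was called. Both gates required EpCAM, and the depletion with BP-1 was made in adult cells alone. The part of fibroblasts in the values of Cdh2 and Cdh11 was not tested.

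**Figure D2:**
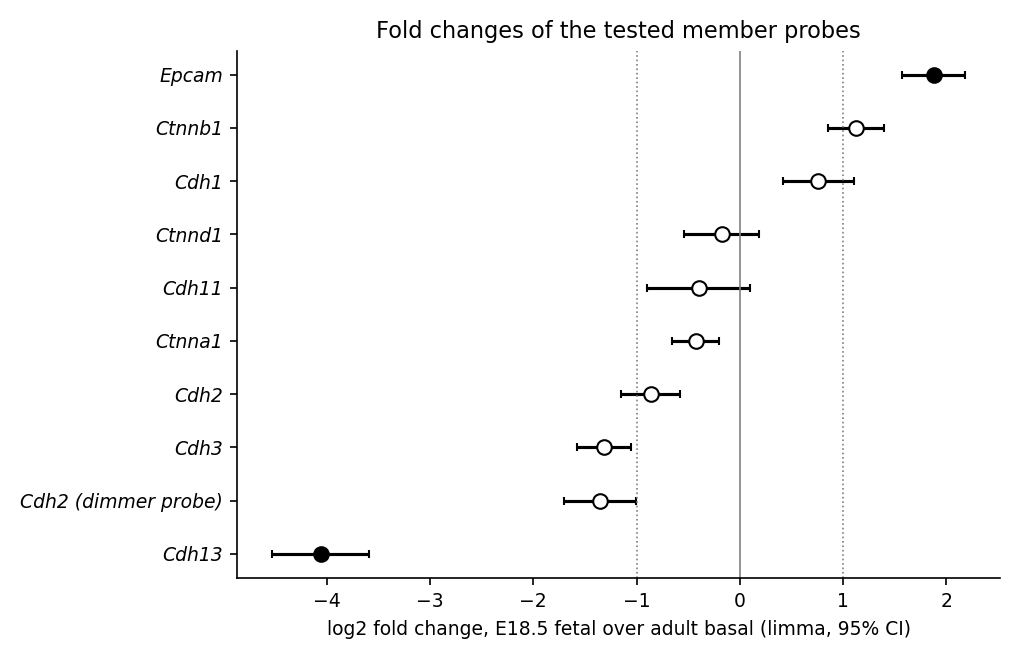
Log2 fold change of fetal over adult basal cells (horizontal axis) for the 10 tested member probes, with 95% confidence intervals from limma. Filled points were called with Holm adjustment (Epcam at 1.88 and Cdh13 at -4.06), open points were not, and dotted lines mark a 2-fold difference.

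Ctnnb1 encodes β-catenin, which links classical cadherins to α-catenin and also carries Wnt signals to the nucleus. Its log2 signal was 14.48, 14.35 and 14.31 in fetal cells and 13.37, 13.09 and 13.28 in adult basal cells. Each fetal array was above each adult basal array. The difference in log2 signal was 1.13 (SE 0.12, 95% CI 0.86 to 1.40, n = 3 and 3), a 2.19-fold difference that passed in limma's test with Benjamini-Hochberg adjustment (adjusted p = 0.000109) and not with Holm adjustment (adjusted p = 0.338). It was 1.16 within slide 1 and 1.24 within slide 2. With a trend and robust estimation in eBayes it passed with Holm adjustment as well.

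Ctnna1 encodes αE-catenin, the actin-binding partner of β-catenin in epithelia. Its log2 signal was 15.33, 15.41 and 15.23 in fetal cells and 15.73, 15.75 and 15.78 in adult basal cells. The populations did not overlap, but the log2 fold change was only -0.43 (SE 0.10, 95% CI -0.66 to -0.20, n = 3 and 3), with a p of 0.00665 in limma's test after Benjamini-Hochberg adjustment. On each array the log2 signal of Ctnnb1 minus that of Ctnna1 was -0.84, -1.07 and -0.92 in fetal cells and -2.36, -2.65 and -2.49 in adult basal cells. This difference changed by 1.56 log2 units between the populations (exact permutation p of 0.1), a pair again chosen after its values were seen.

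Ctnnd1 encodes p120-catenin, which holds cadherins at the cell surface. Its log2 signal was 14.41, 14.39 and 14.02 in fetal cells and 14.24, 14.63 and 14.48 in adult basal cells. The populations overlapped, and the log2 fold change was -0.18 (SE 0.15, 95% CI -0.54 to 0.19, n = 3 and 3), an interval that leaves out a 2-fold difference in either direction. The sign was not the same on both slides, at 0.05 on slide 1 and -0.42 on slide 2.

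Epcam was higher in fetal cells, at log2 signals of 12.95, 13.08 and 12.88, than in adult basal cells, at 11.31, 11.03 and 10.94. EpCAM protein was also the antigen that set the gates, with the brighter fraction taken for fetal cells and the less bright one for adult basal cells, so the transcript difference follows the direction in which the cells were selected. The log2 fold change was 1.88 (SE 0.13, 95% CI 1.57 to 2.18, n = 3 and 3), a 3.68-fold difference (limma, Holm-adjusted p = 0.026). Within the slides it was 1.82 and 1.95. The call was less secure than that of Cdh13: with slide as a block in limma's fit the adjusted p was 0.152, and it ranged from 0.0434 without adult basal replicate 1 to 0.405 without fetal replicate 1. Leaving out any array other than adult basal replicate 1 ended the call, while the log2 fold change stayed between 1.80 and 1.99. The nearest centred profiles were those of Tmem151b, Fbln2 and Creb3l4, at root mean square distances of 0.06, 0.069 and 0.073 log2 units over the 6 arrays.

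**Figure D3:**
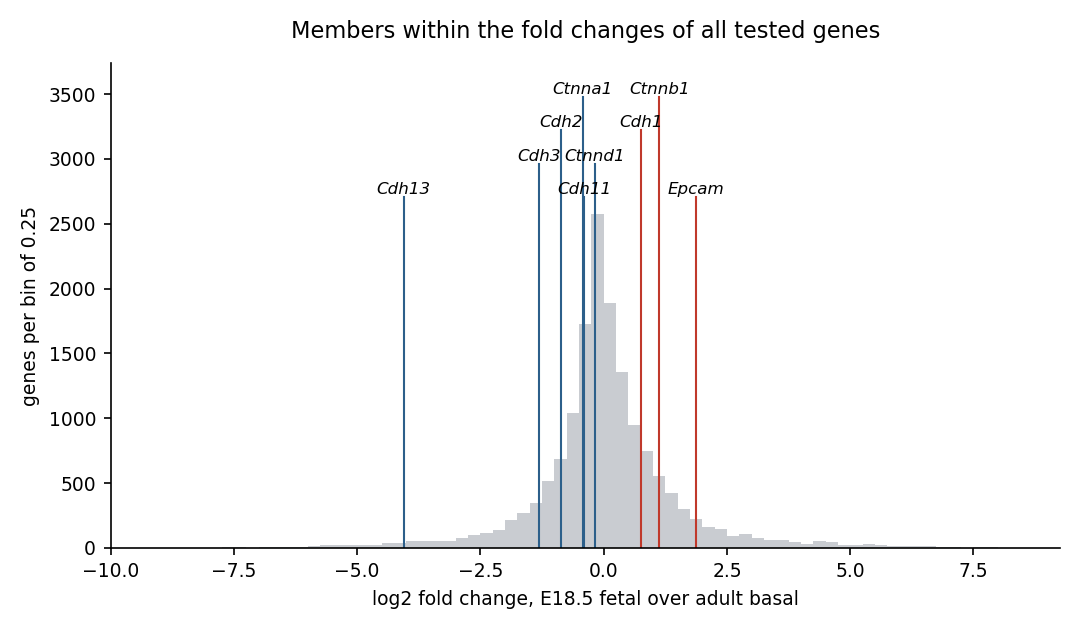
Number of tested genes (vertical axis) by log2 fold change of fetal over adult basal cells in bins of 0.25 (grey bars), with vertical lines at the values of the 9 members (red where fetal cells were higher, blue where adult basal cells were). Cdh13, at -4.06, lies far out in the lower tail, and Epcam, at 1.88, lies above most genes.

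The region before the start of Epcam is printed because Epcam was the member called higher in fetal cells and because repressors that bind E-boxes are among the genes listed below. RefSeq promoter sequences of 3 members were at hand, and that of Epcam covers chr17:87635729-87635978 of GRCm38.p6 on the plus strand, which is the 250 bases before the annotated start, written 5′ to 3′. Capitals mark the E-box CAGGTG or its other strand CACCTG, the sequence known to be bound by SNAI and ZEB proteins, and the GC box GGGCGG or its other strand CCGCCC.
Epcam promoter: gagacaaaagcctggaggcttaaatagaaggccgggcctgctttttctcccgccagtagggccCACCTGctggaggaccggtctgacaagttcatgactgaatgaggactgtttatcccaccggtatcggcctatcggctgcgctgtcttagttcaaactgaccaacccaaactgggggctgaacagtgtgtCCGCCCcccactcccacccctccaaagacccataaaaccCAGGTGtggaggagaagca
The E-box occurred at 2 places, starting 187 and 19 bases before the start, and the GC box at 1, starting 58 bases before it. Of 32851 RefSeq promoters, 17.2% held this E-box and 32.7% this GC box in the same 250 bases. Neither TATAAA nor CCAAT was present on either strand, and 12.4% and 33.8% of promoters held them. The share of G and C was 56.4%, beside a median of 52.4% over all promoters. These are matches of letters only, and no binding was measured here.

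Markers of luminal mammary cells, which have high EpCAM and E-cadherin, differed in both directions, more of them in that of Epcam. Of 14 luminal markers tested, out of 15, 7 were called higher in fetal cells and none in adult basal cells with Holm adjustment in limma's test, with a median log2 fold change of 2.39. Elf5, 1 of the 7 and named after its values were seen, had an adult basal mean below the low-signal limit and was tested only through its fetal signal. With Benjamini-Hochberg adjustment 8 had higher fetal and 2 higher adult basal signal, the latter being the keratin genes Krt7, at a log2 fold change of -1.29, and Krt19, at -1.22, both named after their values were seen. Their summed signal was 242522, 253832 and 193259 on fetal arrays and 131466, 125884 and 124568 on adult basal arrays, with Krt18 as the brightest gene. Between 4 and 6 of them were called when 1 array was left out, with 4 without adult basal replicate 3, fetal replicate 2 or fetal replicate 3. Salivary gland epithelium also expresses Epcam, and 5 of 6 salivary gland markers tested, out of 7 on the array, were called higher in fetal cells, with a median log2 fold change of 6.63. The summed salivary signal was 32624, 34989 and 35293 on fetal arrays and 661, 651 and 449 on adult basal arrays, its brightest gene was the water channel gene Aqp5, and no adult basal array had Smr3a well above background. The calls of Dcpp1, Dcpp2 and Smr3a were for genes tested only through their fetal signal. The part of luminal or salivary cells in the difference of Epcam or Cdh1 was not tested.

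Genes that act beside the members were read from 6 further lists. Of 33 other cadherin family genes on the array, 22 were tested, 4 of them through 1 population alone, 1 was called in each direction, and their median log2 fold change was -0.26. On none of the 6 arrays was Cdh17 or Cdh19 well above background. Celsr1, a flamingo cadherin of planar cell polarity, was the gene called higher in fetal cells, with log2 signals of 13.41, 13.44 and 13.35 against 10.18, 10.04 and 9.84 in adult basal cells. Its log2 fold change was 3.38 (SE 0.12, limma, Holm-adjusted p = 0.00023). Cdh23, a long cadherin known from the tip links of inner ear hair cells, was the gene called higher in adult basal cells, at 9.40, 9.18 and 9.49, and was tested only through its adult basal signal. No fetal array had it well above background, so the adult basal signal was at least 47.8-fold higher (limma, Holm-adjusted p = 7.15e-06), a bound against the higher, on each fetal array, of its own signal and the dimmest signal that counted as well above background. Both calls held in each of the 19 alternatives tried, but the size for Cdh23 did not, as its log2 fold change was -3.61 with the normexp background correction, less than the bound. Cdh5, the cadherin of endothelial cells, which also stands in the endothelial list, was named after its values were seen. It had log2 signals of 3.62, 4.49 and 6.36 in fetal cells and 7.49, 7.27 and 7.81 in adult basal cells, and, tested only through its adult basal signal, its log2 fold change of -2.70 passed in limma's test only with Benjamini-Hochberg adjustment (adjusted p = 0.00696), with a fetal SD of 1.40 (n = 3).

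Of 28 tested adherens junction partners, out of 30, 3 were called higher in adult basal cells and none higher in fetal cells with Holm adjustment in limma's test. With Benjamini-Hochberg adjustment 7 had higher adult basal and 2 higher fetal signal, and the list median was -0.04, equal to that of all tested genes. Actn1, α-actinin, which crosslinks actin, had a log2 fold change of -2.53 (SE 0.12). Ajuba, a LIM protein found at adherens junctions, had one of -2.27 (SE 0.15). Ptprm, a receptor phosphatase of cell contacts, was well above background on 1 of 3 fetal arrays and was tested only through its adult basal signal, so a call could only be for higher adult basal signal. It was 4.96-fold lower in fetal cells when no array was taken below its dimmest signal well above background. Of these calls that of Actn1 was lost without fetal replicate 2 (limma, Holm-adjusted p = 0.0523), that of Ajuba without any 1 array (0.0632 to 0.371) and that of Ptprm without any array other than adult basal replicate 2 (up to 0.409). Nectins are another class of junction receptor, and their genes were named after their values were seen. Nectin4 had log2 signals of 9.72, 9.89 and 9.70 in fetal and 5.24, 6.93 and 6.27 in adult basal cells. It passed in limma's test only with Benjamini-Hochberg adjustment (log2 fold change 3.63, adjusted p = 0.000126). Nectin1 passed in the other direction, again only with Benjamini-Hochberg adjustment (log2 fold change -1.12, limma, adjusted p = 0.000275). Nectin2 and Nectin3, at 0.04 and -0.11, had overlapping populations.

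Of 12 genes for EpCAM partners and proteases tested, 1 was called higher in fetal cells and none higher in adult basal cells, and their median log2 fold change was 0.46. Cldn7, the claudin that binds EpCAM, had log2 signals of 14.64, 14.76 and 14.40 in fetal cells and 10.22, 10.09 and 9.69 in adult basal cells, a log2 fold change of 4.60 (SE 0.17, limma, Holm-adjusted p = 0.000327). The populations did not overlap, and the call held under each of the 19 alternatives, while 2 genes of the list were called without adult basal replicate 1. With Benjamini-Hochberg adjustment in limma's test 4 of the 12 were higher in fetal cells, including the claudin gene Cldn1, which was tested only through its fetal signal. Another was Spint1, an inhibitor of the protease matriptase, with a log2 fold change of 1.70 by either of its 2 probes, of which the dimmer one also passed with Holm adjustment (limma, adjusted p = 0.0158). The matriptase gene St14 had a log2 fold change of 0.15 (SE 0.11), and those of the sheddase genes Adam10 and Adam17 were 0.77 and 0.78, under the 2-fold limit. In the other direction, also under that limit, were Psen2 at -0.98, Cd9 at -0.59, Cd44 at -0.57 and Fhl2 at -0.30. Of these, only Fhl2 had overlapping populations. All genes named from this list but Cldn7 were named after their values were seen.

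None of 17 tested genes for β-catenin turnover and binding, out of 19, was called with Holm adjustment in limma's test. Leaving out 1 array gave between 0 and 1 calls for higher fetal signal. With Benjamini-Hochberg adjustment 3 had higher fetal and 1 higher adult basal signal, and 8 of the 17 had populations that did not overlap, beside 68.4% of all genes. The 4 genes were named after their values were seen: Ctnnbip1, an inhibitor of β-catenin binding to TCF factors, at a log2 fold change of 2.58, Cby1, another β-catenin antagonist that was tested only through its fetal signal, at 1.97, Amer1, a component of the destruction complex, at 1.18, and Gsk3b, the kinase that marks β-catenin for degradation, at -1.19. Their Holm-adjusted p values (limma) were between 0.101 and 0.229. Of the other Gsk3b probes 1 gave -1.25 and 1 gave -0.87, under the 2-fold limit, so that its call depended on the probe.

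Transcription factors known to repress Cdh1 were read from a list of 8, of which 7 were tested. With Holm adjustment in limma's test 2 were called higher in adult basal cells and none in fetal cells, and with Benjamini-Hochberg adjustment 5 had higher adult basal and 1 (Tcf3, named after its values were seen) higher fetal signal. However, 4 of the 7 (Snai1, Twist2, Zeb1 and Zeb2) had a fetal mean below the low-signal limit and were tested only through their adult basal signal, so their direction was fixed by that limit and these counts are a description. The median log2 difference was -2.20 over the 7 and -2.23 over all 8, tested or not. Snai2, which encodes Slug, had log2 signals of 10.73, 10.70 and 10.65 in fetal cells and 12.96, 13.45 and 13.16 in adult basal cells, and its log2 fold change was -2.50 (SE 0.14, limma, Holm-adjusted p = 0.00644). Zeb1 lay between 3.99 and 4.14 in fetal cells, where 1 of 3 arrays was well above background, and 6.39, 6.79 and 6.59 in adult basal cells, and it was called (limma, Holm-adjusted p = 0.00323). With no array taken below its dimmest signal well above background, Zeb1 was 5.73-fold lower in fetal cells. All fetal arrays were below all adult basal arrays for both genes. Without any 1 fetal array both calls were lost, and without adult basal replicate 3 that of Snai2, with Holm-adjusted p values (limma) of up to 0.125 for Snai2 and 0.0661 for Zeb1. Twist1 fell below the low-signal limit and was not tested, and Twist2 also stands in the fibroblast list. These factors are also expressed by stromal cells, whose markers are given above.

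Among regulators of the epithelial state, calls were for higher fetal signal. Of 11 tested, 4 were called higher in fetal cells and none in adult basal cells, with a median log2 fold change of 2.02. Grhl3, a grainyhead factor of surface epithelia, had log2 signals of 11.80, 11.99 and 11.82 in fetal cells and 7.23, 7.49 and 7.11 in adult basal cells, a log2 fold change of 4.59 (SE 0.13, limma, Holm-adjusted p = 4.96e-05). The Ets factor genes Ehf and Elf3 had log2 fold changes of 2.32 (SE 0.11) and 2.02 (SE 0.10), and Klf5, a Krüppel-like factor, had 2.12 (SE 0.15). The 2 probes of Ehf differed in size, as the dimmer one gave 7.60. Without 1 array the calls of Klf5 (any array, limma's Holm-adjusted p between 0.079 and 0.413) and Ehf (fetal replicate 1 or 2, up to 0.0579) were lost, and 2 calls of the list were left without fetal replicate 1 or 2. The call of Elf3 was lost with replicate number as a block. Grhl2 and Ovol2, regulators that maintain Cdh1 in epithelia, had log2 fold changes of 0.49 and -0.22 and were not called, and they were named after their values were seen. The dimmer probe of Grhl2 gave 0.22, with overlapping populations. The luminal and salivary gland markers given above also had positive list medians, 2.39 and 6.63. The part of those cells in the differences of these regulators was not tested.

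**Figure D4:**
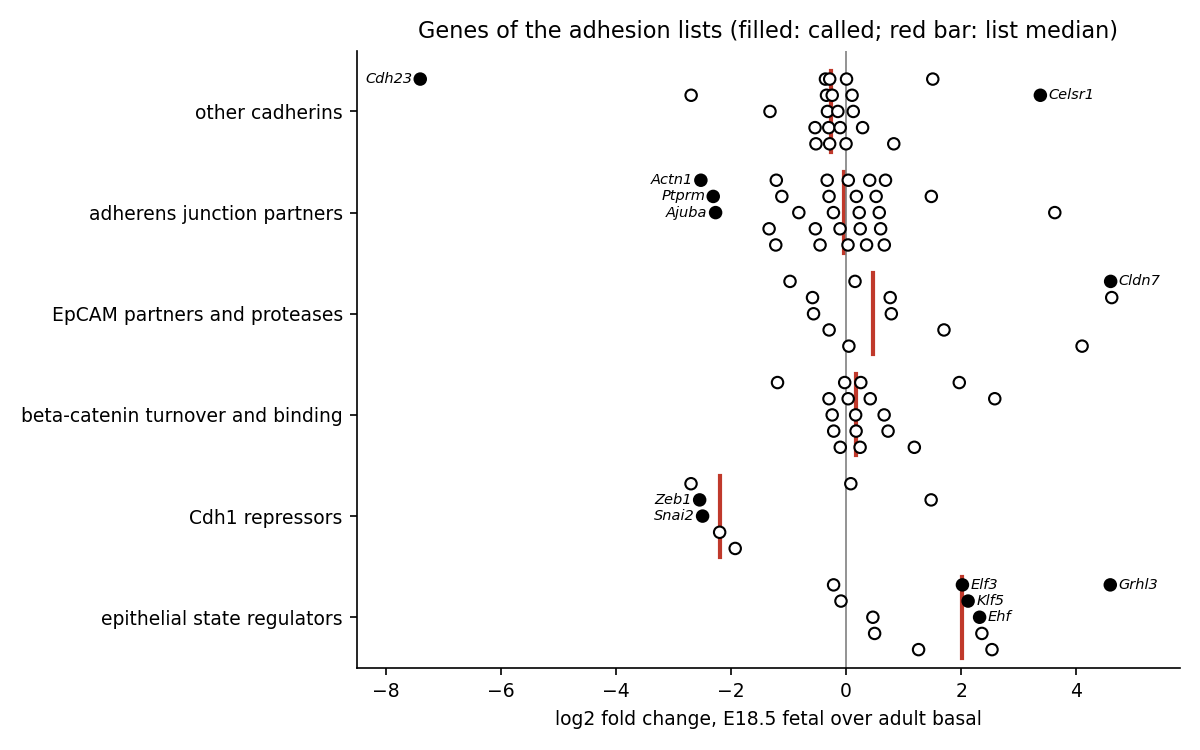
Log2 fold change of fetal over adult basal cells (horizontal axis) for each tested gene of the 6 lists, spread vertically within a list for legibility. Filled, named points were called with Holm adjustment, open points were not, and red bars are list medians, from -2.20 for the Cdh1 repressors to 2.02 for the epithelial state regulators.

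The spread between replicates was small beside the larger differences. The SD of the members' main probes was between 0.06 and 0.38 in fetal cells and between 0.02 and 0.32 in adult basal cells (log2, n = 3 each), with medians of 0.10 and 0.17. Over all tested genes the medians were 0.12 and 0.18. Cdh11 had the highest fetal SD, and Cdh13 the highest adult basal SD. For no member did a change in processing or the loss of 1 array turn the direction of its difference, wherever it was tested.

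**Figure D5:**
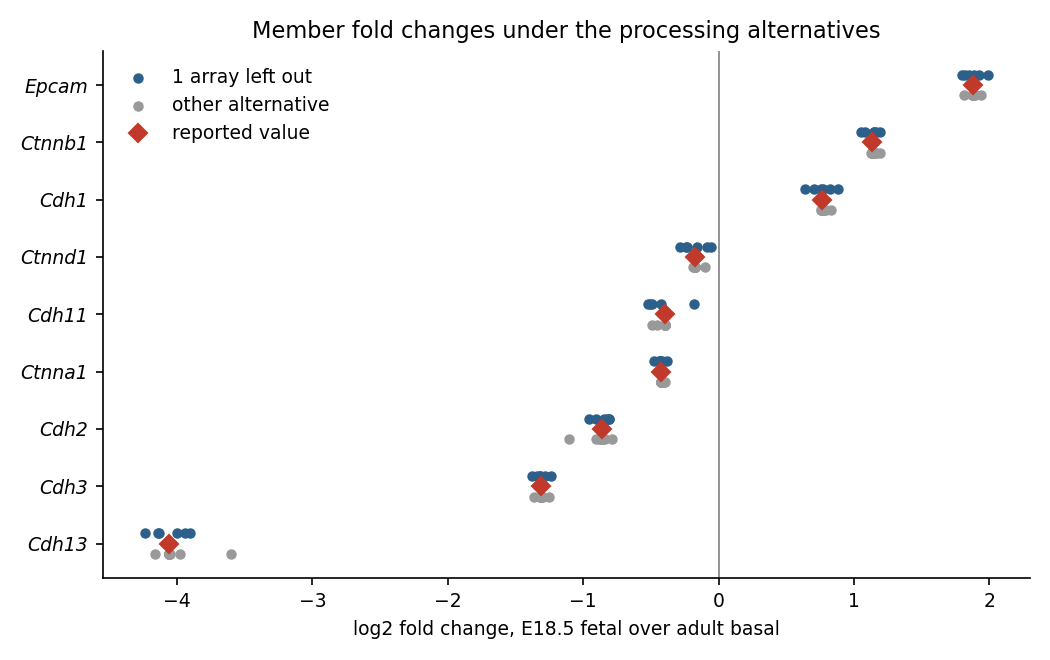
Log2 fold change of each member (horizontal axis) as reported (red diamonds), with each of the 6 arrays left out (blue points) and under the other alternatives (grey points). Cdh11 was not tested without adult basal replicate 3 and in some other alternatives. Values keep their sign throughout; those of Cdh13 span -4.24 to -3.60 and those of Ctnnd1 come nearest to 0, at -0.05.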

How the data were processed

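Single-color arrays measured RNA from 3 samples of E18.5 fetal and 3 of adult basal cells. The spot intensity deposited by the authors came from Feature Extraction 11.0.1.1 (named in the submitters' processing notes), with background subtracted and arrays not normalized to each other. The authors also deposited log2 values, quantile normalized in GeneSpring. The labelling kit differs between the labels and the methods. Here, control spots and 104 to 326 outlier spots an array were removed, a probe's spots were averaged on the log2 scale, and arrays were brought to the same quantiles. The files name no genes, so accessions were matched to RefSeq (GRCm38.p6) for 27235 of 55681 probes. Probes in the lowest of 3 k-means clusters (100 starts, limit 5.95) in both populations were removed. limma 3.58.1 in R 4.3.3 was fitted to the other 20448, with Holm adjustment. The number of arrays limits the precision.

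The members and lists were chosen with earlier results of these data known. Named were all members, the called genes of each list other than the cell type markers (at most 6 by fold change), the brightest gene of each marker list, and for called members the 3 nearest profiles; all other genes, among them the other markers, were named after their values were seen. A further listed gene is not reported here. The alternatives were 75th percentile normalization, the deposited values, normexp (offset 50), the study's low-signal limit, no such limit, probes well above background on 3 or more arrays, all probes, Benjamini-Hochberg adjustment, a trend with robust estimation, an offset of 16, each array left out, replicate or slide blocks, and probes averaged per gene. Tables and plots were made in Python 3.11.15 with pandas 2.3.3, numpy 2.4.6 and matplotlib 3.10.9.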

Additional observations from a re-analysis of the deposited data

How the results depend on the processing

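The count of called probes, 2270, fell to 1182 without the low-signal limit and rose to 6133 with Benjamini-Hochberg adjustment, and it was between 945 (without fetal replicate 1) and 1981 when 1 array was left out. The count of called members, 2, was 1 without the low-signal limit, with probes well above background on 3 or more arrays, with all probes and with slide as a block, where Epcam was lost. It was 4 with Benjamini-Hochberg adjustment and with a trend and robust estimation, where Cdh3 and Ctnnb1 were added, and 1 or 2 when 1 array was left out. Over the 9 members and 19 alternatives, 152 of 167 fold changes stayed on their side of the threshold, 10 (all of Epcam) lost their call, 5 gained one and 0 reversed. Cdh11 could not be tested in 4 alternatives. No scaling moved the median of all genes by over 0.1 log2 units. The alternatives for the lists and the paired members were added after the data were seen: 423 of 494 list counts stayed within 1.5 times the reported one, 44 of 224 fold changes of named list genes lost their call, and 0 reversed. Replicates with the same number did not deviate together (correlations of -0.03, 0.09 and 0.05), so the numbers were not taken to pair the samples. With replicate number as a block, 1302 probes and 1 member (Cdh13) were called. Among the named list genes, that block ended the calls of Ptprm, Snai2, Zeb1, Elf3 and Klf5.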

Other observations

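Leukocytes and epidermis were also followed as other cells that a mammary preparation can hold. Of 10 leukocyte markers tested, none was called with Holm adjustment in limma's test and 3 were called higher in adult basal cells with Benjamini-Hochberg adjustment, each tested only through its adult basal signal, with a list median of -0.23. Their summed signal was 34918, 29190 and 26726 on fetal arrays and 25231, 34370 and 29093 on adult basal arrays, and the populations overlapped. The brightest gene of the list was Itgam. Without Itgam the sum was 16430, 12620 and 14561 on fetal arrays and 14584, 15931 and 17655 on adult basal arrays, which also overlapped. Of 6 epidermis markers tested, out of 8 on the array, 1 was called in each direction, and the list median was 1.17. Krt1 and Krtdap had an adult basal mean below the low-signal limit and were tested only through their fetal signal. Both had higher fetal signal and entered this median, which was 1.21 over all 8, tested or not. The summed epidermis signal was 4066, 3596 and 3533 on fetal arrays and 12874, 17709 and 19933 on adult basal arrays, with Krt15, a keratin of basal epidermal cells, as the brightest gene. Without Krt15 it was 3116, 2703 and 2521 on fetal arrays and 2558, 3147 and 2838 on adult basal arrays, and the populations overlapped. The epidermis call for fetal cells was lost without any 1 array, and that for adult basal cells without fetal replicate 1.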
